A study of Mus musculus with 4 samples.

Results

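Centrioles are duplicated and converted into basal bodies by a small set of conserved proteins, and RFX2 peaks were examined at the promoters of 10 genes that encode them: Plk4, Stil, Sass6, Cenpj, Spice1, Poc1a, Poc1b, Deup1, Cby1 and Pcm1. The 10 genes were listed by name for the function of their products, with earlier results of these data known, out of 21938 protein-coding genes of the annotation. A promoter was the stretch from 1000 bp upstream to 500 bp downstream of any annotated transcription start site (TSS), and a peak was assigned to a gene when it met this stretch by at least 1 bp. RFX2 promoter peaks were listed at 5 of the 10 genes in each replicate list and at 4 in a combined list. Over all protein-coding genes the shares were 14.0% and 11.3% in the replicates and 5.26% in the combined list. The highest combined values were at Cenpj, Spice1 and Cby1. No list held a promoter peak of Plk4, Stil or Sass6, whose products start a new centriole, and most protein-coding genes likewise had none.

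The data are ChIP-seq data, in which an antibody enriches the DNA bound by a protein and that DNA is sequenced. RFX2 was precipitated from chromatin of decapsulated testis of wild type mice on a mixed C57BL/6|129/Sv|FVB/N background. The labels give an age of 29 to 30 days after birth (the text of the study describe dissociated germ cells of younger animals), and the anti-RFX2 antibody was sc-10657. There were 2 RFX2 ChIP samples (replicate 1 and replicate 2) and 2 inputs, which are chromatin sequenced without precipitation and which entered only through the peak calling of the authors. All samples were wild type, and no chromatin lacking RFX2 was analysed here. Binding in chromatin of a mixture of cells cannot be assigned to a cell type, and since peak lists hold no expression values the labelled tissue could not be checked against marker genes.

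The replicate 1 list held 39825 peaks, the replicate 2 list 21274 peaks and a further list, called here the combined list, 2726 peaks. The value of a peak in the replicate lists is on a −log10 scale, whereas the combined list gives −log10 p, the fold enrichment over local background and the summit, the position of highest signal. Values of the replicate lists and of the combined list are therefore not on one scale, and ranks count from 1 at the highest value of each list. Read depth is unknown for all 3 lists. A list holds only peaks past the threshold of its authors, so that a gene without a listed peak is not shown to be free of RFX2. The combined list shares its reads with the replicates and is no independent repeat of them, and 2 samples give no spread, so all values below are descriptions without a test.

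Centriole duplication begins when the kinase PLK4 recruits STIL and SAS-6 (the product of Sass6) to the side of an existing centriole, where they build the cartwheel that sets the symmetry of the new centriole. CPAP (the product of Cenpj) then lengthens the microtubule wall, and SPICE1, POC1A and POC1B act on growth and stability of that wall. Multiciliated cells make many centrioles at once from deuterosomes, which contain DEUP1. A finished centriole docks at a membrane to become the basal body of a cilium or flagellum, a step in which CBY1 takes part, and PCM1 is the scaffold of the centriolar satellites that carry proteins to centrioles and cilia. In round spermatids the distal centriole serves as the basal body from which the axoneme of the sperm tail grows.

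RFX proteins bind the X-box, an inverted repeat. It was taken as GTTGCCATGGCAAC, which is the 7-base word GTTGCCA followed by its own reverse complement, so that a search of one strand covers both. The sequences below are shown because they are the closest X-box matches inside the peaks of the 5 genes, together with the closest match at Poc1a, the only one of the genes without a promoter peak that came within 3 mismatches. Each is 30 bases of GRCm38 on the strand of the gene, with the 14 bases of the match in capitals.
Deup1, chr9:15627912-15627941, minus strand: gaggccgcGTCTCCATGGCAACccactggg
Cby1, chr15:79658893-79658922, plus strand: cctgctttGTTGCCAAGGAAAAcgattact
Spice1, chr16:44347387-44347416, plus strand: gagctctgGTAACCCAGGCAACggcccgga
Pcm1, chr8:41239660-41239689, plus strand: gcgcagccGTTGCCGAGGAGACcgcgctcg
Cenpj, chr14:56571974-56572003, minus strand: gcatagagCATCCCCTAGCAACgtttatgg
Poc1a, chr9:106327486-106327515, plus strand: gacccatgGTATCCATGGGAACacataaat
The matches ran from 2 mismatches at Deup1, through 3 at Cby1 and Poc1a and 4 at Spice1 and Pcm1, to 5 at Cenpj. Deup1, Spice1 and Cenpj kept the last 4 bases of the palindrome intact, whereas Cby1 and Pcm1 kept its first 6.

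In the combined list, 4 of the 10 genes (40.0%) had a promoter peak, namely Cenpj, Spice1, Deup1 and Cby1. The same held for 1153 of all 21938 protein-coding genes, or 5.26%. In replicate 1, 5 of the 10 genes had a promoter peak beside 14.0% of all protein-coding genes, and in replicate 2 the same 5 had one beside 11.3%. In both replicates together the count was again 5 of 10, beside 9.05% of all genes. The fifth gene was Pcm1. Each of the 5 genes had 1 promoter peak per list, and each replicate 2 peak lay entirely inside the replicate 1 peak of its gene. Because of how the 10 genes were chosen, the distance between their share and that of all genes is given as a description.

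**Figure D1:**
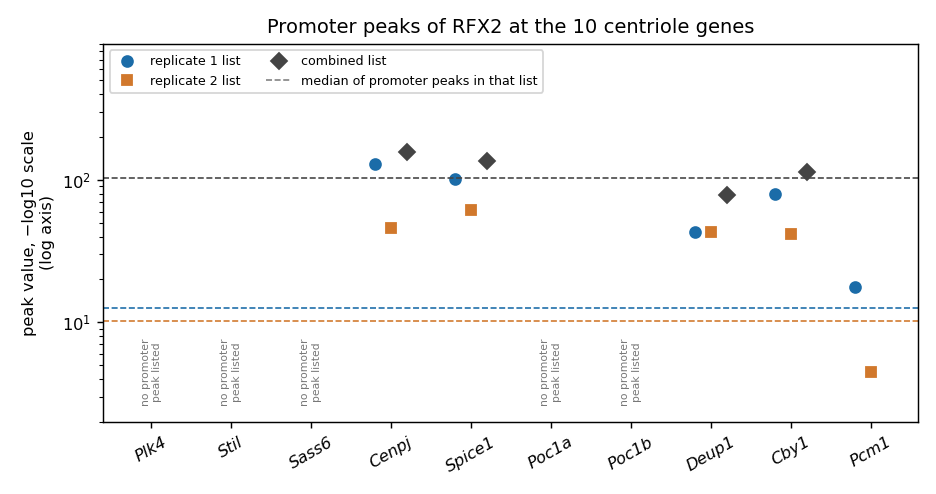
Value of the promoter peak of each of the 10 genes in the 3 lists (−log10 scale, log axis), with dashed lines at the median of all promoter peaks of the same list (12.6, 10.3 and 103). Cenpj, Spice1, Deup1 and Cby1 lie above the medians of both replicates, Pcm1 lies above that of replicate 1 only, and 5 genes have no promoter peak in any list.

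Plk4 encodes the kinase that starts centriole duplication and controls centriole number. No list held a peak in the promoter of any of its 9 start sites. The nearest replicate 1 peak ended 1564 bp upstream of the first TSS with a value of 3.39 and rank 36231 of 39825. The nearest replicate 2 peak was 69.7 kb upstream, and the nearest combined peak was 259 kb upstream. The only peak close to Plk4 was thus among the weakest of 1 replicate and had no counterpart in the other.

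Stil encodes the PLK4 substrate that brings SAS-6 to the assembly site. Its nearest replicate 1 peak lay in an intron, 1181 bp downstream of an internal TSS, with a value of 3.43. The nearest replicate 2 peak was 19.2 kb upstream of the first TSS, and the nearest combined peak was 2240 kb away. Sass6, for the hub of the cartwheel, had its nearest peaks at 16.8 kb in replicate 1, 11.5 kb in replicate 2 and 86.2 kb in the combined list. None of the 3 genes that start a new centriole therefore had a peak in both replicates within the gene or within 5000 bp of it. The share of all genes with such a peak was not computed. For promoters alone it was 9.05% of protein-coding genes, so lacking a peak does not set these 3 genes apart.

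Cenpj, whose product lengthens the wall of the new centriole, had the strongest promoter peak of the 10 genes in replicate 1 and in the combined list. The Cenpj peak had a value of 129 in replicate 1 (rank 413 of 39825) and 46.3 in replicate 2 (rank 579 of 21274). The combined peak, at chr14:56571648-56572573, was 926 bp wide and had −log10 p 157 and fold enrichment 19.0. It took rank 457 of 2726, and rank 269 of the 1003 combined promoter peaks. In all 3 lists it was thus above the median promoter peak.

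The Cenpj summit was at position 56571994, 148 bp upstream of the TSS of Cenpj-201, a coding transcript. Other Cenpj transcripts start further upstream: the 5′-most coding TSS, that of Cenpj-203, was at 56575382, and the summit lay 3388 bp downstream of it. The annotation places the summit in an untranslated exon of Cenpj-203 and in an exon of the non-coding transcript Cenpj-202. Of the 4 genes in the combined list, Cenpj was the one whose assignment depended on which TSS is used, since a promoter at the 5′-most coding TSS alone did not meet its peak. The annotation gives Cenpj-201 its best transcript support level, 1. Cenpj-202 and Cenpj-203 have no support level.

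Spice1, which encodes a protein of centriole duplication and of the mitotic spindle, was well placed in all 3 lists. Its value was 101 in replicate 1 (rank 650) and 61.8 in replicate 2 (rank 368), the highest replicate 2 value of the 10 genes. The combined peak, at chr16:44346928-44347558, was 631 bp wide and had −log10 p 136, fold enrichment 19.5 and rank 610. By width it was the narrowest of the 4 combined peaks and by fold it was the highest. The centres of its replicate peaks differed by 6 bp.

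The Spice1 summit at 44347403 lay 282 bp downstream of the TSS of Spice1-201, the 5′-most coding TSS, within an untranslated exon of that transcript. The same position was 11 bp upstream of the TSS of Spice1-208, a transcript annotated as non-coding. The sequence with 4 mismatches shown above was centred 1 bp from the summit.

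Poc1a and Poc1b encode related WD-repeat proteins of the centriole wall, and neither had a promoter peak in any list. The nearest replicate 1 peak of Poc1a ended 1018 bp upstream of its first TSS, just outside the promoter, with a value of 3.16. The nearest replicate 2 peak was in an intron, 1701 bp upstream of the TSS of the non-coding Poc1a-202, with a value of 5.06. These were different peaks at different start sites, and the nearest combined peak was 723 kb away. For Poc1b, the nearest replicate 1 peak lay in an intron 5711 bp downstream of an internal TSS with a value of 10.4. Replicate 2 had none within 70.1 kb of a Poc1b TSS, and the combined list none within 928 kb.

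Deup1, for the deuterosome protein, was the weakest of the 4 genes in the combined list and had the most alike values in the 2 replicates. By place among promoter peaks it was less even, in the upper 26.0% of replicate 1 and the upper 16.9% of replicate 2. Spice1 was the most even by place, at 10.8% and 10.9%. Its value was 43.2 in replicate 1 (rank 2086) and 43.4 in replicate 2 (rank 631). The combined peak, at chr9:15627666-15628429, was 764 bp wide, had −log10 p 78.9 and fold enrichment 11.9, and took rank 1443 of all combined peaks and 665 of the promoter peaks. It was the only one of the 4 below the median −log10 p of combined promoter peaks, 103. The summit at 15627927 was 6 bp downstream of the 5′-most TSS, in an untranslated exon of Deup1-203, and within the body of the neighbouring gene 4930540M03Rik. The X-box match with 2 mismatches was centred on the summit itself.

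Cby1, which encodes Chibby, a protein of the distal end of basal bodies, had a value of 79.9 in replicate 1 (rank 984) and 41.7 in replicate 2 (rank 682). The combined peak, at chr15:79658329-79659370, was the widest of the 4 at 1042 bp, and had −log10 p 114, fold enrichment 12.7 and rank 844. This peak met 2 divergent promoters. Fam227a, a protein-coding gene on the minus strand, has a TSS 275 bp from that of Cby1, and the summit at 79658925 was 1 bp upstream of this Fam227a TSS and 274 bp upstream of the Cby1 TSS. To which of the genes the binding belongs cannot be told apart from a peak list. None of the other 3 combined peaks met the promoter of another protein-coding gene, and among all 1003 combined promoter peaks 161 (16.1%) met more than 1.

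Pcm1, for the satellite scaffold, was the gene on which the lists differed. Replicate 1 held a peak at chr8:41239223-41239764 with a value of 17.8 and rank 4915, and replicate 2 held one at chr8:41239434-41239715 with a value of 4.46 and rank 13995. Among promoter peaks these were at rank 1337 of 3140 and rank 2023 of 2448. The combined list had no peak nearer than 83.2 kb. The replicate 1 peak was centred 259 bp upstream of the first Pcm1 TSS. Pcm1 was also the only gene of the 10 with a peak of both replicates inside its body beyond the promoter: an intronic peak had a value of 15.0 in replicate 1 (chr8:41265401-41266029) and 4.59 in replicate 2 (chr8:41265410-41265712), again with none in the combined list. A further 5 peaks in the Pcm1 body, with values from 3.89 to 6.29, were in replicate 1 only.

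**Figure D2:**
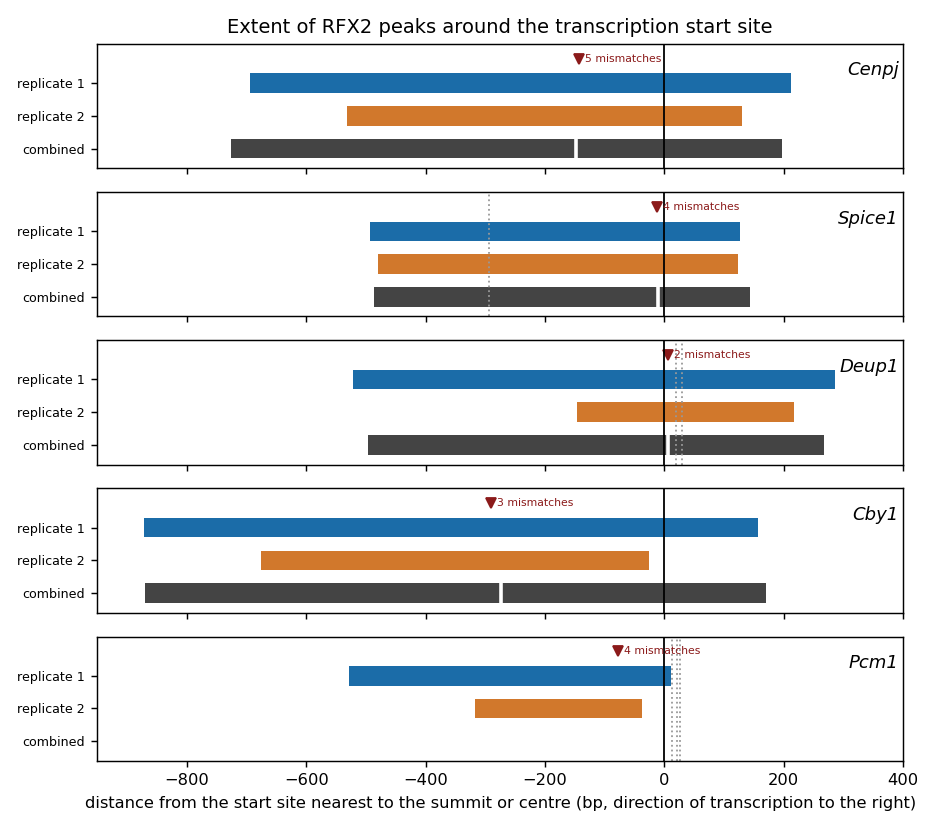
Extent of the promoter peaks in the 3 lists (bars) around the TSS nearest to the combined summit, or for Pcm1 to the replicate 1 centre (solid line at 0), with distance in bp and transcription to the right. White marks are combined summits, dotted lines other TSS of the gene, and triangles the closest X-box match in the peak with its mismatches. Summits lie between 274 bp upstream (Cby1) and 6 bp downstream (Deup1).

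Replicate 1 gave the higher value at 4 of the 5 genes. The ratio of the replicate 1 value to that of replicate 2 was 0.996 at Deup1, 1.63 at Spice1, 1.91 at Cby1, 2.79 at Cenpj and 4.0 at Pcm1. Over the 1777 replicate 1 promoter peaks that met any peak of replicate 2, the median ratio was 1.95 with quartiles of 1.36 and 2.65. Spice1 and Cby1 lay between these quartiles, Deup1 below them and Cenpj and Pcm1 above. The peak centres were 6 to 154 bp apart between replicates, with the largest shift at Deup1, where the replicate 2 peak was 366 bp wide and that of replicate 1 was 809 bp wide.

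Among the 1003 combined promoter peaks, the 4 genes lay in the middle of the range, from rank 269 to rank 665. Their −log10 p values had a median of 125, beside 103 for all combined promoter peaks (quartiles 67.3 and 163). Their fold enrichments had a median of 15.8, beside 15.0 (quartiles 11.1 and 19.9), and their widths a median of 845 bp, beside 879 bp. All 4 genes lay between the quartiles for both −log10 p and fold, so their peaks were ordinary promoter peaks of the combined list in strength. For reference, Dync2li1, which encodes a light intermediate chain of the ciliary dynein motor, had a −log10 p of 244 and rank 116.

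**Figure D3:**
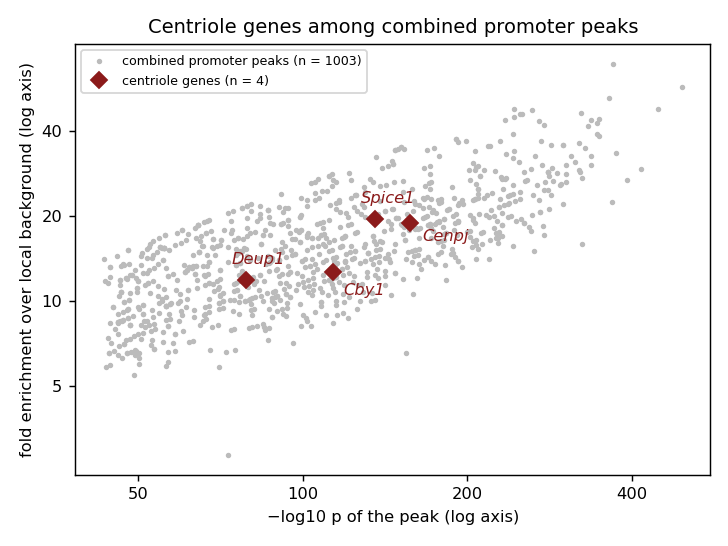
Fold enrichment over local background against −log10 p (both axes logarithmic) of the 1003 combined promoter peaks (grey), with the peaks of Cenpj, Spice1, Cby1 and Deup1 marked. The 4 peaks lie inside the cloud, with −log10 p from 78.9 to 157 and fold from 11.9 to 19.5.

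Summits of combined promoter peaks lay close to start sites. Measured to the nearest TSS, their median position was 31 bp upstream, with quartiles of 105 bp upstream and 3 bp downstream. Upstream positions made up 71.5%, and 86.2% of the summits were within 300 bp. Deup1 and Spice1 had summits within 11 bp of one of their own start sites. These starts belong to Deup1-203 and Spice1-208, both at the lowest support level of the annotation, 5. From Spice1-201, at the best level, 1, the Spice1 summit was 282 bp downstream. Deup1-205, also at level 1, starts at 15627914, close to the Deup1 summit at 15627927. Cenpj and Cby1 had theirs further upstream than the quartile, although that of Cby1 was next to the start site of Fam227a.

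An X-box with at most 3 mismatches was present within the 200 bp around the summit in 2 of the 4 genes, Deup1 and Cby1. Over all 1003 combined promoter peaks the share was 58.9%, and over all combined peaks 75.4%. In windows of the same length placed 1000 bp to the right of the summits it was 0.99%, and around the 5′-most coding TSS of 21853 protein-coding genes 2.5%. With up to 4 mismatches Spice1 also had a match, and the share of combined promoter peaks rose to 78.1%. Cenpj, with 5 mismatches at best, was therefore among the minority of promoter peaks with no close X-box, although its peak had the highest −log10 p of the 4 (by fold, and in replicate 2, Spice1 was higher). A match is a likeness of letters, and its absence from these 200 bp says nothing on whether RFX2 was in contact with the DNA.

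The substitutions are written as the base of the palindrome, its position counted from 1 at the 5′ end, and the base found. Deup1 had T3C and G4T, Cby1 had T8A, C11A and C14A, and Spice1 had T3A, G4A, A7C and T8A. Pcm1 had A7G, T8A, C11A and A12G, and its match lay 182 bp from the replicate 1 peak centre, 77 bp upstream of the TSS. Cenpj had G1C, T2A, G4C, A7C and G9A. The 2056 matches with at most 3 mismatches at all combined summits were each read as 2 mirrored half-sites. Positions 4 and 11 differed from the palindrome most often, in 25.2% of these half-sites, and positions 3 and 12 in 18.2%. Positions 1 and 14 differed in 4.82%. Positions 2 and 13 differed in 4.57%. The middle positions lay between: 5 and 10 at 10.5%, 6 and 9 at 12.1%, and 7 and 8 at 14.6%. There lay T8A of Cby1, A7C and T8A of Spice1, A7G and T8A of Pcm1, and A7C and G9A of Cenpj. The matches of Spice1, Pcm1 and Cenpj had more than 3 mismatches and are not among the 2056. At the often changed positions lay T3C and G4T of Deup1, C11A of Cby1, T3A and G4A of Spice1, C11A and A12G of Pcm1 and G4C of Cenpj, and at the seldom changed ones C14A of Cby1 and G1C and T2A of Cenpj. The exact word GTTGCCA, on either strand and contained in the palindrome, was present once each in the summit windows of Deup1 and Cby1, and in 36.3% of combined promoter peaks.

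The genes without a promoter peak did not all lack X-box-like sequence. Over the promoters of all their start sites, the closest match was the one at Poc1a shown above (T3A, G4T and C11G), 227 bp upstream of the TSS of Poc1a-202, a non-coding transcript that starts far inside the gene. The closest matches of Plk4, Stil, Sass6 and Poc1b had 4 mismatches each. Promoters of any TSS held a match with at most 3 mismatches in 17.6% of protein-coding genes, and with at most 4 in 63.2%. The share with at most 3 mismatches was above the 14.0% of genes with a promoter peak in replicate 1 and the 5.26% in the combined list. In the single promoter at the 5′-most coding TSS, Deup1 with 2 mismatches and Cby1 with 3 were the only ones of the 10 genes within 3 mismatches, beside 8.96% of all genes.

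**Figure D4:**
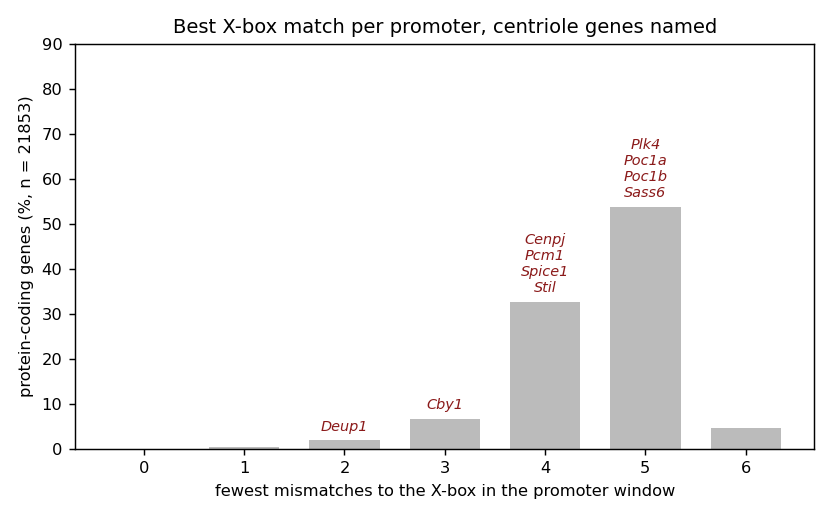
Share of 21853 protein-coding genes (in %) by the fewest mismatches to the 14-base X-box in the promoter of the 5′-most coding TSS, with the 10 centriole genes named above their bar. Deup1 and Cby1 stand at 2 and 3 mismatches, while the other 8 stand at 4 or 5 with most genes.

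A list of 72 further centriole genes, grouped by the role of their products, gave the surroundings of the 10. In the combined list 18 of the 72 (25.0%) had a promoter peak, and 39 had none in any list. The share of all protein-coding genes without a promoter peak in any list was not computed. Replicate 1 held one at 33 of the 72, beside 14.0% of all protein-coding genes, and replicate 2 at 28, beside 11.3%. The share in the combined list was again above the 5.26% of all protein-coding genes. Of the 18, 8 (44.4%) had a peak that also met the promoter of another protein-coding gene, as for Cby1, so that some of these peaks may be counted for a neighbour of the gene that is bound. The 16.1% given above is a share of peaks and cannot be set beside this share of genes. Over all genes with a combined promoter peak the share was not computed. The −log10 p values of the 18 genes had a median of 134, close to the 125 of the 4 genes above.

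Of the 9 genes that recruit PLK4 or build the cartwheel, 1 (11.1%) had a combined peak, Cep57l1 at rank 1952 with fold enrichment 17.9, beside the 5.26% of all protein-coding genes. Peaks in both replicates were listed at 3 of the 9, beside 9.05% of all protein-coding genes. They were Cep57l1, Cep135 (values 27.5 and 10.6) and Cep63 (4.47 and 3.56). Cep152, which helps to recruit PLK4, was listed in replicate 1 alone (value 5.87), and 5 of the 9 had none in any list, as for Plk4, Stil and Sass6. The share of all protein-coding genes with none in any list was not computed. Among the 21 genes of procentriole growth and length, 7 had a combined peak, in the group to which Cenpj and Spice1 belong by function. They included Tube1 (epsilon-tubulin, rank 345), the centrins Cetn4 (rank 353) and Cetn2 (rank 400), the kinesin gene Kif24 (rank 484) and Wdr90 (rank 611), and the other 2, Ccp110 and Tedc1, had ranks 2086 and 2376. The peaks of Tube1, Cetn4, Cetn2 and Kif24 also met the promoters of Fam229b, Bbs12, Nsdhl and Nudt2, in this order.

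Of the 12 genes of distal appendages and basal body docking, 8 had a peak in both replicates, beside 9.05% of all protein-coding genes. A combined peak was listed at 4 of the 12, beside 5.26% of all protein-coding genes. They were Cep89 (rank 584), whose peak also met the promoter of Faap24, Fam92b (rank 992), whose product binds Chibby, Dzip1 (rank 1627) and Fbf1 (rank 2351). Of the 11 genes of subdistal appendages, rootlet and centriole cohesion, 3 had a combined peak, led by the kinase gene Nek2 (rank 206) and Cep170 (rank 633), whose peak also met the promoter of Sdccag8, with Odf2 at rank 2034. Of the 13 satellite genes, 3 had one, and Ccdc13 (−log10 p 261, rank 92) and Ofip (annotated as 4933427D14Rik, rank 287) had higher values in both replicates than the satellite scaffold gene Pcm1. The Ofip peak also met the promoters of Txndc17 and Gm43951, and the peak of the other satellite gene, Cep290 (rank 2368), that of Tmtc3. None of the 6 other genes of deuterosomes and multiciliated-cell centriole amplification had a combined peak, and 2 of them, Ccno and Gmnc, had one in both replicates, with values from 3.06 to 18.0. Deup1 was thus the only listed gene of that role with a combined peak. As 5.26% of all protein-coding genes had one, its absence from the 6 others does not set Deup1 apart.

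**Figure D5:**
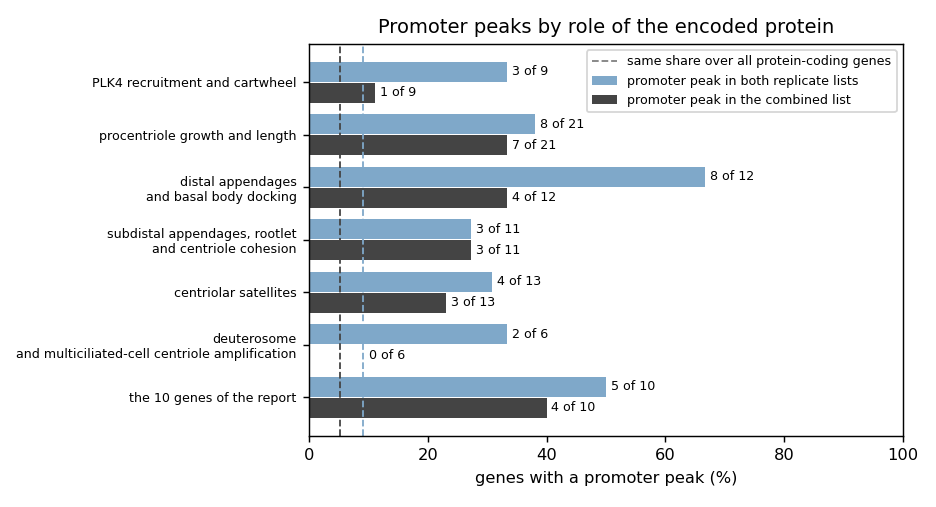
Share of genes (in %) with a promoter peak in both replicate lists (light bars) and in the combined list (dark bars), for the 72 further centriole genes by role and for the 10 genes of the report, with counts beside the bars. Dashed lines mark the same shares over all protein-coding genes, 9.05% and 5.26%.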

How the data were processed

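RFX2 ChIP-seq of 2 samples was analysed with 1 input each. Per the methods of the study, the authors mapped reads to the mouse genome and discarded reads with several locations, removed reads of human origin from a second run of replicate 2 (mouse reads from conserved sequence can be lost with them), and called peaks against input. The methods also describe a later step that kept only peaks reproducible between both replicates. Whether the combined list is the product of that step is not stated in it. The submitters' processing notes name CASAVA 1.8.2, Bowtie 0.12.7, MACS2 2.0.10.20130520 and GRCm38. The deposited replicate lists hold a single −log10 value for each peak, which the files do not name as a p-value or a q-value. Its lowest values, 2.03 and 2.08, lie just above the −log10 of the p-value threshold that the methods give for a relaxed call. The deposited combined list gives −log10 p, −log10 q, the fold (a ratio to the local background), a summit, and a score, which was 10 times −log10 p without its decimals in 100% of its peaks. The archive attaches the combined list to replicate 2, but its peak names begin with "all", and it was treated as a call on both replicates.

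Start sites came from GENCODE mouse release 21 and sequence from RefSeq GRCm38 patch 6. The lists name Ensembl release 70, so gene models can differ from those of the authors. RefSeq promoter sequences matched the genome at their coordinates in 32851 of 32851 cases. Promoters, ranks and X-box matches were computed with python 3.11.15, numpy 2.4.6, pandas 2.3.3 and matplotlib 3.10.9, and the overlap and motif code was tested on simulated data. X-box shares at a single TSS cover the 21853 protein-coding genes with a coding transcript.

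The named genes were the 10 members, the further centriole genes with a combined promoter peak by rank (at most 12 with values), genes that share a promoter peak with a member, and Dync2li1. Cep57l1, Cep135, Cep63, Cep152, Ccp110, Tedc1, Fbf1, Odf2, Cep290, Ccno, Gmnc, 4930540M03Rik and the genes that share a peak with a further centriole gene were named after their values were seen. The members and gene lists were chosen with earlier results of these data known. No statistical test was run, because the lists hold no counts and 2 samples give no spread. Alternatives covered the promoter, the TSS, the part of a peak used, a stricter threshold, each replicate alone, the mismatches and search window of the X-box, and the ranking.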

Additional observations from a re-analysis of the deposited data

How the results depend on the processing

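The 4 genes of the combined list kept their promoter peak with a promoter of 500 bp upstream to 50 bp downstream, with 2500 bp either side, and with the peak centre or the summit required inside. With the 5′-most coding TSS alone 3 remained, without Cenpj, and in the upper 50% of the list 3 remained, without Deup1. The 5 genes of both replicates became 6 with 2500 bp either side, where Poc1a was added by different peaks at different start sites, 4 with the 5′-most coding TSS (without Cenpj) and 4 in the upper 50% (without Pcm1). Of the 72 further centriole genes, 11 in place of 18 had a combined peak in the upper 50% of the list, and of all protein-coding genes 751 in place of 1153. With either replicate list alone in place of the combined list, the 10 genes gave 5, the 72 genes 28 to 33 and all protein-coding genes 2474 to 3066. The 2 X-boxes at summits became 1 with at most 2 mismatches (Deup1), 1 with windows at the peak centre, and 3 with at most 4 mismatches. The median rank of the 4 peaks, 727 by −log10 p, was 1554 by width and 389 among promoter peaks alone. The cause of these shifts was not tested beyond the narrower or wider selection itself. No paired analysis was possible because the results come from no test. Depth is unknown, so a peak missing from a list, such as that of Pcm1 from the combined list, may be below its threshold. The lowest −log10 p in the combined list was 43.2. Pcm1 had values of 17.8 and 4.46 in the replicate lists, which are not on one scale with it. A peak may also be missing from the combined list because the authors kept only peaks reproducible between replicates. Which of these applies to Pcm1 was not tested.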

Other observations

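The peaks of Cenpj and Pcm1, which had no close X-box within 100 bp of their summit or centre, held another sequence in common. It was noticed after the sequences were seen. The 7-base word TGTAGTT was present, on either strand, in 2 copies in the 200 bp around the Cenpj summit and in 2 copies around the centre of the Pcm1 replicate 1 peak. The copies are shown because the bases before the word were also alike, with the word in capitals, each on its own strand of GRCm38.
Cenpj, chr14:56571890-56571912, plus strand: ctgggaaaTGTAGTTcctacagt
Cenpj, chr14:56571943-56571965, minus strand: ctgggagtTGTAGTTtgcatgtg
Pcm1, chr8:41239453-41239475, plus strand: ctgggattTGTAGTTccgtttct
Pcm1, chr8:41239502-41239524, plus strand: ctgggatgTGTAGTTcccaggtt
All 4 copies shared the run CTGGGANNTGTAGTT, and they lay 20 to 93 bp from the summit or centre. Within 200 bp, this run was present in 5 of 1003 combined promoter peaks (0.499%), of which 4 were among the 412 without an X-box (0.971%) and 1 among the 591 with one (0.169%). Cenpj, from which the run was read, was 1 of those 4, so this split was partly fixed in advance. Around the 5′-most coding TSS of 21853 protein-coding genes the run was present in 115 (0.526%), so its share was alike in combined promoter peaks, Cenpj included, and in promoters at large. The word TGTAGTT alone was present in 2.59% of combined promoter peaks and in 2.38% of the TSS windows, Poc1a among them with 1 copy. Spice1, Deup1 and Cby1 had none. Whether the run has a part in the RFX2 signal at Cenpj and Pcm1 was not tested.

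The G+C content of the 200 bp around the summit was 55.0% at Cenpj, 67.5% at Spice1, 71.0% at Deup1 and 51.5% at Cby1, beside 58.8% ± 7.57 (SD, n = 1003) over combined promoter peaks. Spice1 and Deup1 were thus more than 1 SD above that mean, and Cenpj and Cby1 within 1 SD of it.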
